A study of Sus scrofa with 24 samples.

Results

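Proteins that are misfolded or no longer needed are either refolded by chaperones or cut up by the proteasome, and the genes of both machineries were compared here in the fat of pigs that differ in feed efficiency. Genes were taken by symbol: proteasome subunits (PSMA, PSMB, PSMC, PSMD and PSME), HSP70, HSP90 and small heat shock proteins, the mitochondrial pair HSPD1 and HSPE1, and the J proteins (DNAJ), which deliver clients to HSP70. The symbols came from the gene name in the scanner files or from the RefSeq identifier listed there, and each gene was represented by its brightest probe. This gave 48 genes on 143 probes, of 5596 symbols named on the array, with 23 proteasome genes and 25 chaperone genes. No subunit of the CCT chaperonin was found under these names. All but 1 of the 48, DNAJC6, passed the filter on dim spots, which left 47.

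The arrays measured RNA of subcutaneous adipose tissue from 24 pigs at 115 kg body weight, 8 in each group, on 1 array for each pig. RFIneg pigs came from a line with low residual feed intake, that is, animals that eat less than their size and growth would predict, and they fed ad libitum. RFIpl pigs came from the high line and also fed ad libitum, while RFIplR pigs of the high line were held at the intake of the low line. RFIneg against RFIpl therefore compares lines under free feeding, RFIneg against RFIplR compares lines at 1 feeding level, and RFIplR against RFIpl compares feeding levels within the high line. Sex and age were not given in the sources used here. In whole tissue a change in the number of cells of a type cannot be told apart from a change in RNA per cell.

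The 26S proteasome is a barrel, the 20S core, with a cap at its ends. Rings of alpha subunits gate the barrel, beta subunits hold the cutting sites, and the 19S cap uses ATPases (PSMC) to unfold clients that its non-ATPase subunits (PSMD) recognise by their ubiquitin chains. Interferon replaces the cutting subunits by PSMB8, PSMB9 and PSMB10, and the activator PSME1-PSME2 can stand in for the cap. HSP70 and HSP90 proteins fold clients with ATP, small heat shock proteins (HSPB) hold unfolded clients without it and HSPD1 with its lid HSPE1 folds proteins inside mitochondria. Fat cells fold and secrete much protein, such as adiponectin, through the ER.

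The probes behind the differences described first are shown by their opening 30 of 60 bases, written 5′ to 3′ as in the scanner files, so that the measured stretch of each transcript can be looked up. Genomic positions were not used here.

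HSPB2: gacgtgtcatagcgttttttcgtttagttt

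DNAJB12: gtagatcctaatggatcccctgagaagctg

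DNAJC12: gttcattcccccatccttgaaaccattctc

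HSPA1L: agtttcttcttcctgtgtggatggttattt

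PSMC1: ggcaggatgccttcatgttggtcatgtgct

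PSMD4: tgagaaccttccaggcgtggatcccaacaa

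PSMD10: ggtctgggcttaatactcaagagaatggtg

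HSPB8: cagactagtggtgttgtgtatatgggtggg

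Values are log2 processed intensities relative to the 75th percentile of each array, called relative levels below. A level compares pigs for 1 probe and never 1 probe with another. Arrays fell into 17 bright ones, whose 75th percentiles were 416 to 665 intensity units, and 7 dim ones at 69.5 to 94.6. The dim arrays were 2 of RFIneg, 2 of RFIpl and 3 of RFIplR, and all were scanned on the same day. The mean relative level of 9 of 9 listed adipocyte markers, among them ADIPOQ and PLIN1, lay between 4.45 and 5.77 over the arrays. This mean was lower in RFIpl. On the bright arrays 5 of 6 RFIpl means lay between 4.68 and 5.24, with RFIpl 3 apart at 5.70. RFIneg lay at 5.39 to 5.77 and RFIplR at 5.40 to 5.66. On the dim arrays the 2 RFIpl means, 4.45 and 4.64, were also below the others, which began at 4.77. The listed genes did not all share this. Bright LEP values were -0.06 to 3.93 in RFIpl and 3.30 to 3.75 in RFIneg. PPARG, at 4.69 to 5.87 and 5.04 to 5.71, and FABP4, at 8.25 to 8.62 and 8.33 to 8.76, overlapped broadly. Muscle transcripts stood out on RFIpl 2 and, less, on RFIpl 1. There the mean of 8 skeletal muscle markers, of 13 listed, was 6.40 and 1.27 against -2.19 to 0.46 elsewhere, RFIneg 6 being the highest. On RFIpl 1 TNNC2, at -1.40, MYH7, at -1.95, and ACTA1, at 4.01, lay within the range of other bright arrays. The rest were above every other bright array but RFIpl 2. The keratinocyte markers SFN and DSP averaged 4.78 on RFIpl 7 and 3.33 on RFIpl 8, against -3.65 to -0.92 on the other arrays; 4 further genes of that list were not matched to a probe.

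No member passed the test in any comparison when the 24 arrays were fitted by group alone. The limma test, adjusted by Benjamini-Hochberg over the 28611 probes kept, called 0 of 47 members in RFIneg against RFIpl, where it called 0.206% of all probes. It called 0 of 47 in RFIneg against RFIplR (0% of all probes), 0 of 47 in RFIplR against RFIpl (0.297%) and 0 of 47 for any group difference (0.276%). At an unadjusted p under 0.05 the members numbered 2, 1, 3 and 2, that is 4.26%, 2.13%, 6.38% and 4.26%, beside 6.88%, 2.11%, 8.2% and 6.85% of all probes. In that fit the gap between bright and dim arrays counts as spread between pigs, and it was wide for these genes: 37 of 47 members were lower on the dim arrays, 20 of them by more than 1 log2 unit.

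With the brightness class as a block, 3 of 47 members were higher in RFIneg than in RFIpl and none was lower, while 6.6% of all probes were called. None of the 47 was called between RFIneg and RFIplR, where no probe at all was called (0%) and 4 members (8.51%) had an unadjusted p under 0.05, beside 9.48% of all probes. RFIplR differed from RFIpl in 5 of 47 members, 4 higher and 1 lower, beside 10.3% of all probes. For any group difference the count was 3 of 47, beside 9.03%. The members' shares, 6.38%, 10.6% and 6.38%, thus lay near or below those of the whole array. Both comparisons with calls share the RFIpl arrays. With the slide added as a second block no member was called, while 1.45% of all probes were called in RFIneg against RFIpl, 5.9% in RFIplR against RFIpl and 3.4% for any difference. The members called before kept their sign there, with differences such as 0.47 for DNAJB12 and 1.15 for DNAJC12 in RFIneg and 0.86 for HSPA1L and 0.28 for PSMD4 in RFIplR. The counts for RFIneg and RFIplR against RFIpl were 0 and 3 without RFIpl 1 and RFIpl 2, beside 1.92% and 6.66% of all probes. They were 0 and 2 without RFIpl 7 and RFIpl 8, beside 3.07% and 6.23%.

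**Figure D1:**
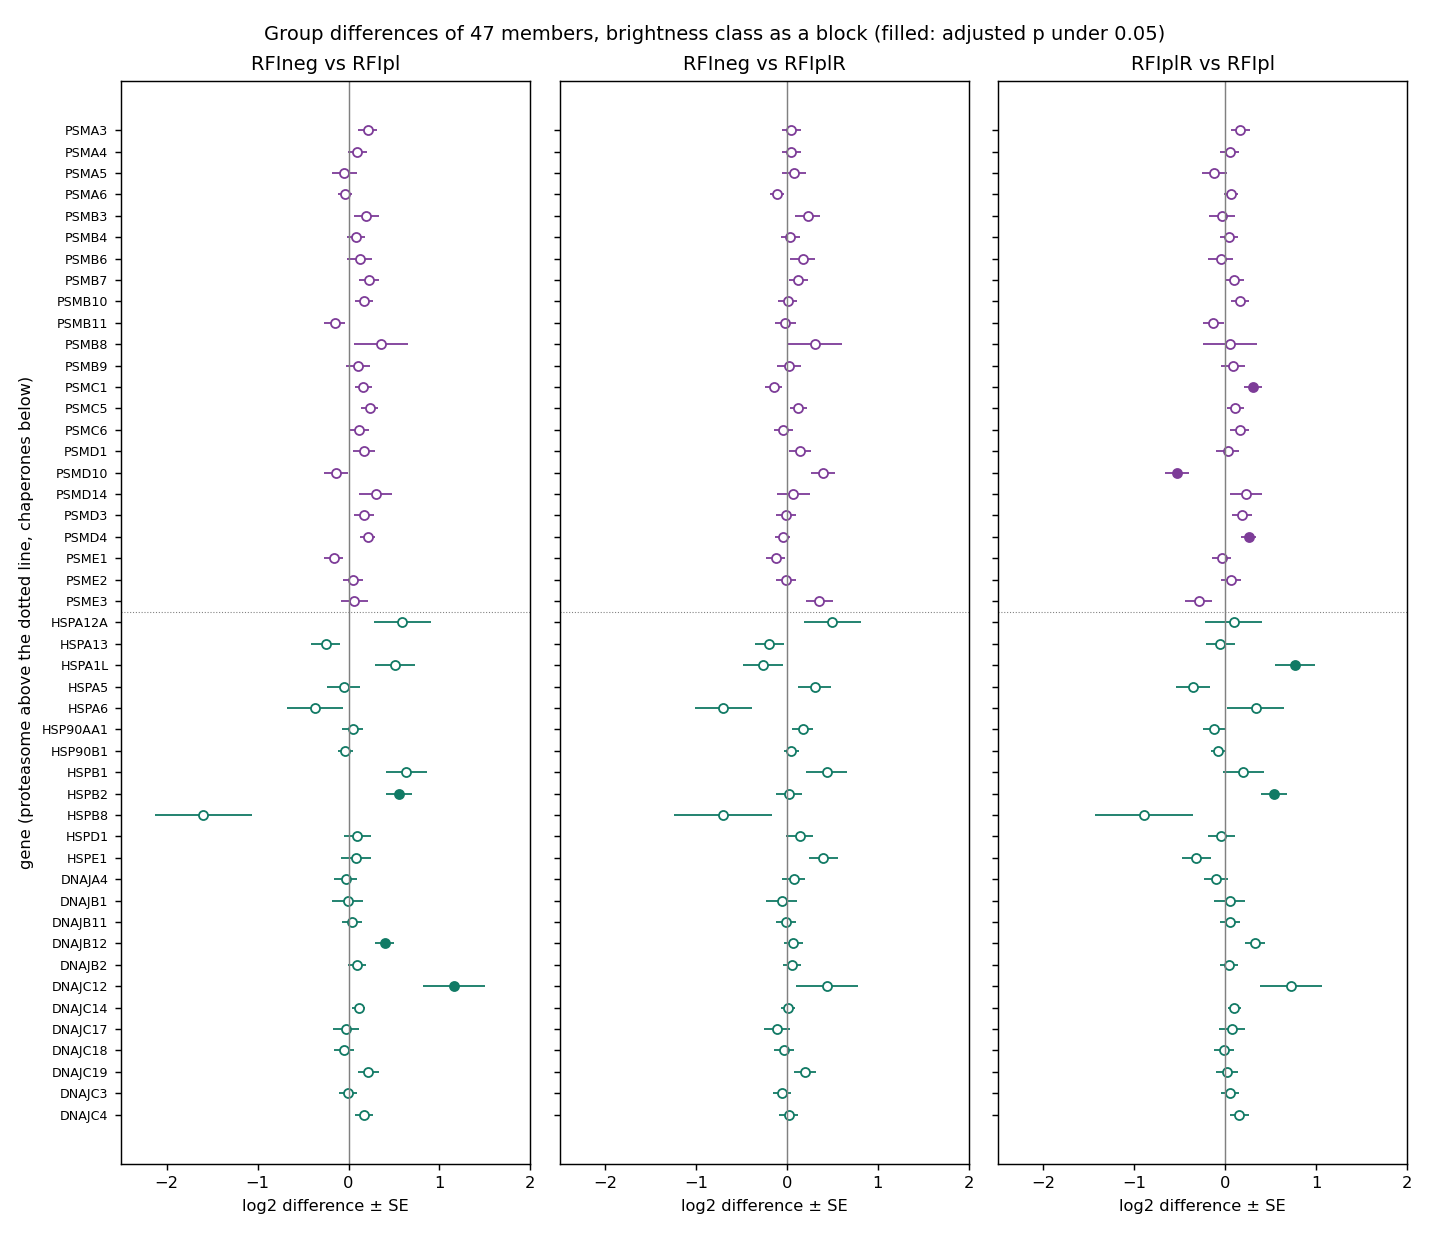
Log2 difference with its standard error for the 47 measured members in each comparison, brightness class as a block, with proteasome genes in purple and chaperones in green (8 arrays per group). Filled points, 3 in RFIneg vs RFIpl and 5 in RFIplR vs RFIpl, had a limma adjusted p under 0.05; most proteasome genes lie close to 0, and HSPB8 has the widest error.

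HSPB2, a small heat shock protein known mostly from heart and skeletal muscle, was the only member called against RFIpl in both comparisons. Its relative level ran from -0.48 through a median of 2.16 to 2.31 in RFIneg, from -0.65 through 1.31 to 2.23 in RFIpl and from -0.11 through 1.90 to 2.25 in RFIplR. On the bright arrays the means were 2.17 ± 0.14 (SD, n = 6), 1.58 ± 0.41 (n = 6) and 2.05 ± 0.16 (n = 5). RFIpl overlapped the other groups there through RFIpl 3, at 2.23, and RFIpl 2, at 1.96, while the remaining 4 bright RFIpl arrays lay between 1.24 and 1.46. RFIpl 3 was also the RFIpl array with a high mean of the adipocyte markers, 5.70. Those remaining 4 arrays had means of 4.69 to 5.24, below every bright array of the other groups. RFIpl 2 had the lowest mean of the bright arrays, 4.68. The part of the adipocyte markers in the differences from RFIpl was not tested for any member. With the block, HSPB2 was higher by 0.56 (SE 0.14, limma adjusted p = 0.023) in RFIneg than in RFIpl, in 8 of 8 arrays set against the RFIpl mean of their class. In RFIplR it was higher by 0.53 (SE 0.14, limma adjusted p = 0.022), again in 8 of 8.

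The HSPB2 difference from RFIpl was of like size in both brightness classes, at 0.59 and 0.46 log2 for RFIneg and 0.46 and 0.67 for RFIplR on bright and dim arrays, and none of these 4 passed the limma adjustment on its own. Within the first scan day it was 0.56 and 0.43, and within the second, which mixes bright and dim arrays, -0.52 and 0.14. The mix differed by group on that second day: every RFIneg array was dim, and more of the RFIplR than of the RFIpl arrays were dim. Without RFIpl 7 and RFIpl 8, the arrays with keratinocyte transcripts, neither call remained, and the RFIneg call also ended without RFIpl 1 and RFIpl 2 together. The call in RFIneg ended without RFIpl 1, RFIpl 4 or RFIpl 8 (limma adjusted p up to 0.054 over the 24 fits that left out 1 array), and the call in RFIplR held in all 24.

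HSPB1, or HSP27, a widely expressed small heat shock protein that also binds actin, had the same order. Its relative levels on the bright arrays averaged 4.87 ± 0.52 (SD, n = 6) in RFIneg, 4.14 ± 0.52 (n = 6) in RFIpl and 4.53 ± 0.30 (n = 5) in RFIplR, and RFIpl 3 was the highest bright RFIpl array, at 4.90. The difference of 0.64 (SE 0.22) between RFIneg and RFIpl did not pass (limma adjusted p = 0.087), and a second HSPB1 probe gave 0.65.

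HSPB8, a small heat shock protein that works with BAG3 in removing damaged proteins by autophagy, had the largest spread of all members. Its residual SD within group and brightness class was 1.14, wider than for 98.6% of kept probes. The relative levels on the bright arrays were -1.71 to -0.22 in RFIneg (median -1.42), -0.60 to 3.27 in RFIpl (median 0.51) and -1.99 to 1.61 in RFIplR (median -0.31). The probe was not well above background on any of the 7 dim arrays, so those give only a bound. The highest values were 3.27 on RFIpl 2, 1.82 on RFIpl 7 and 1.61 on RFIplR 5, and the groups overlapped. On the bright arrays RFIneg differed from RFIpl by -2.13 (SE 0.62), which missed the threshold (limma adjusted p = 0.085). The fit with the block, which also takes in the dim values, gave -1.60 (SE 0.54, limma adjusted p = 0.074).

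RFIpl 2 was also the array with the highest muscle markers and RFIpl 7 the one with the highest keratinocyte markers, whereas RFIplR 5 had muscle markers at -1.66 and keratinocyte markers at -0.95. RFIpl 1, with muscle markers at 1.27, had HSPB8 at -0.60. The part of other cell types in the HSPB8 values was not tested.

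**Figure D2:**
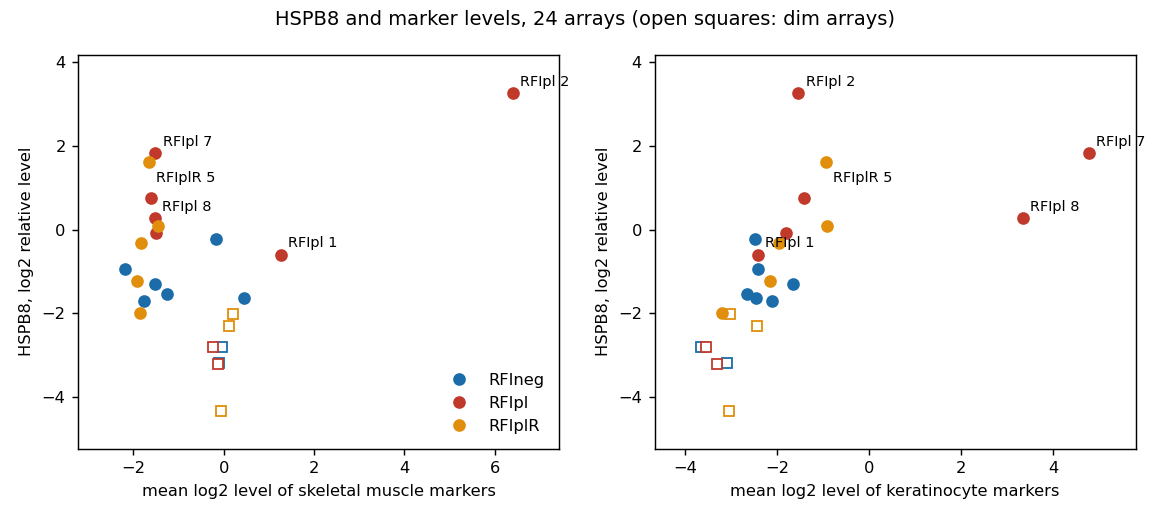
HSPB8 relative level (log2) against the mean level of 8 skeletal muscle markers (left) and of the keratinocyte markers SFN and DSP (right), 1 point per array, coloured by group, open squares for the 7 dim arrays. RFIpl 2 is highest for HSPB8 (3.27) and muscle markers (6.40), RFIpl 7 is second for HSPB8 (1.82) and highest for keratinocyte markers (4.78), and RFIplR 5 is high in HSPB8 (1.61) without either.

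Among the J proteins, DNAJB12, which sits in the ER membrane and works with HSP70 in the disposal of membrane proteins, was lower in RFIpl. Its relative level was 2.09 to 3.75 in RFIneg (median 3.37), 1.55 to 3.38 in RFIpl (median 3.09) and 1.84 to 3.79 in RFIplR (median 3.25). The bright-array means were 3.46 ± 0.16 (SD, n = 6), 3.16 ± 0.19 (n = 6) and 3.49 ± 0.25 (n = 5), with overlapping ranges. On the dim arrays the RFIneg and RFIplR values all lay above the 2 of RFIpl. With so few dim arrays 42.7% and 40.2% of all kept probes did not overlap in these comparisons either. With the block the RFIneg difference was 0.40 (SE 0.11, limma adjusted p = 0.031), in 8 of 8 arrays, and the RFIplR difference of 0.32 (SE 0.11) fell short (limma adjusted p = 0.059). The RFIneg difference was 0.29 on the bright and 0.70 on the dim arrays. It was 0.21 within the first scan day and -0.12 within the second. On that second day every RFIneg array was dim while RFIpl had arrays of both classes, so line and brightness cannot be told apart there. The 4 DNAJB12 probes gave 0.18 to 0.54 for RFIneg, all in the same direction. The RFIneg call was lost without RFIneg 3, RFIneg 7, or RFIpl 1, 2, 4, 5, 6 or 8 (limma adjusted p up to 0.069).

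DNAJC12, a J protein that binds the aromatic amino acid hydroxylases, showed the largest positive difference of all members between RFIneg and RFIpl. Its relative level was -0.74 to 0.66 in RFIneg (median 0.06), -2.48 to 0.54 in RFIpl (median -1.08) and -1.39 to 0.21 in RFIplR (median -0.39). RFIpl spread widest, with a bright-array SD of 1.16 against 0.50 in RFIneg, and its highest value, 0.54 on RFIpl 3, lay within the RFIneg range. The other 5 bright RFIpl arrays, those with a lower mean of the adipocyte markers, lay between -2.48 and -0.24. The difference with the block was 1.16 (SE 0.34, limma adjusted p = 0.042), in 8 of 8 arrays, with 1.02 to 1.26 over 3 probes. It was 1.31 on the bright and 0.69 on the dim arrays, and 0.78 and 0.91 within the first and the second scan day. Without block the same difference of 1.16 had a limma adjusted p of 0.22. With the block it lost the threshold in 12 of the 24 fits that left out 1 array, those without RFIneg 1 to 6 or RFIpl 1, 2, 4, 5, 6 or 8 (limma adjusted p up to 0.092). DNAJC12 in RFIplR was 0.72 above RFIpl (SE 0.34, limma adjusted p = 0.19).

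The other 10 measured J proteins stayed within 0.22 log2 of equality between RFIneg and RFIpl. DNAJC19, part of the mitochondrial import motor, was the farthest at 0.22 (SE 0.12), and its 7 probes ran from -0.12 to 0.51, the widest range of any member. DNAJB1, the stress-inducible partner of HSP70, had bright-array means of 3.43 ± 0.28 (SD, n = 6), 3.38 ± 0.39 (n = 6) and 3.47 ± 0.22 (n = 5) in RFIneg, RFIpl and RFIplR. DNAJC14 had the smallest residual SD of all members, 0.12. DNAJC6, the partner of HSC70 in stripping clathrin coats, passed background on 4 arrays of RFIneg, 1 of RFIpl and 2 of RFIplR and was not tested.

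**Figure D3:**
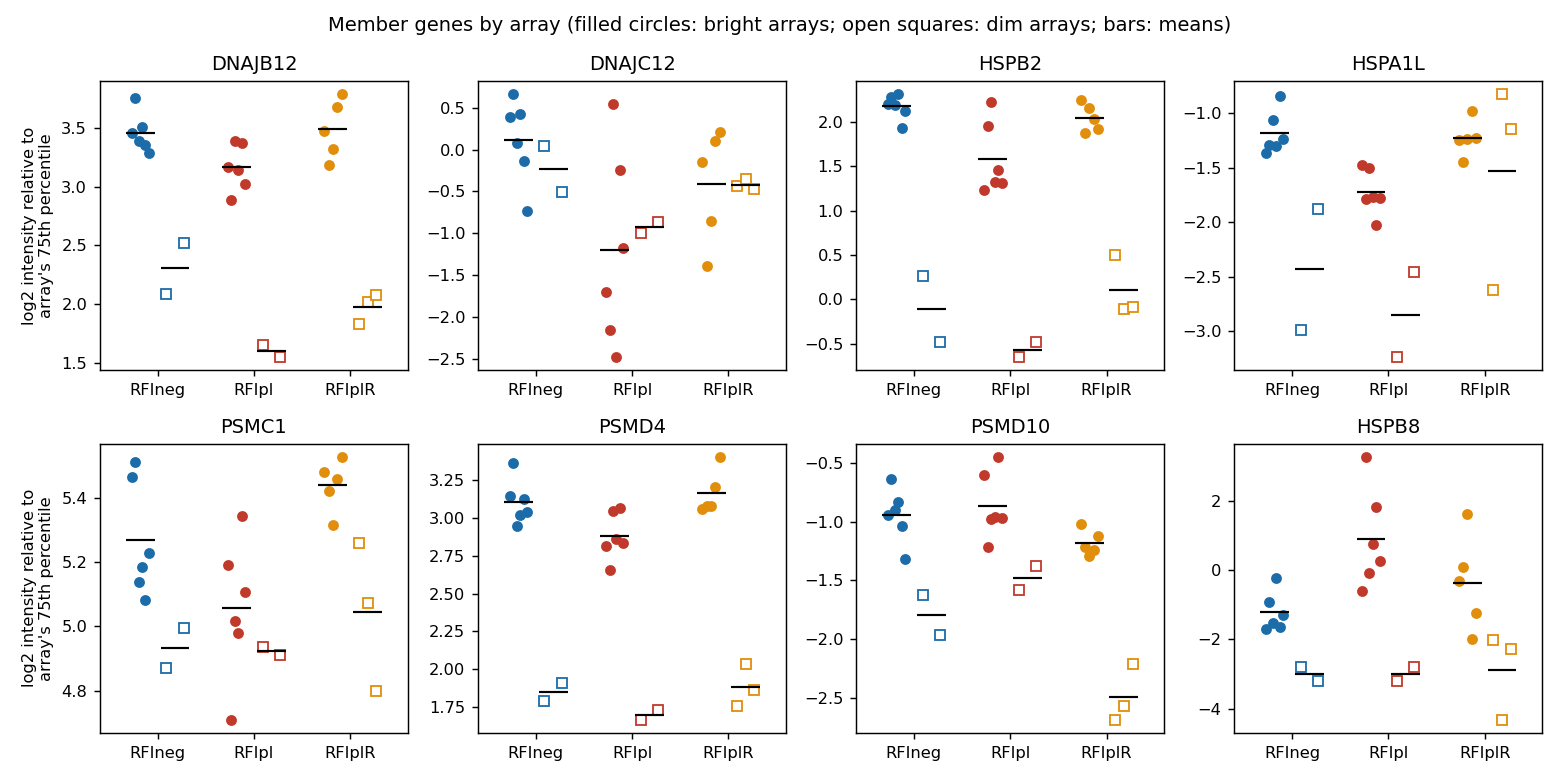
Relative level (log2) on every array for the 7 genes called with brightness as a block and for HSPB8, by group; filled circles are bright arrays (6 RFIneg, 6 RFIpl, 5 RFIplR), open squares dim arrays (2, 2 and 3), and bars are means of each class. Only HSPA1L separates RFIpl from the other groups on the bright arrays, and PSMD10 is lowest on the 3 dim RFIplR arrays.

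HSPA1L, an HSP70 protein best known from testis, was the only member whose bright arrays did not overlap between groups, in RFIneg against RFIpl and in RFIplR against RFIpl. That is 1 of 47 members in each, beside 0.919% and 3.07% of all kept probes, and 0 of 47 in RFIneg against RFIplR, beside 0.535%. On the few dim arrays 10, 17 and 14 of 47 members did not overlap, beside 42.7%, 40.2% and 26.7% of all probes. The bright HSPA1L values ran from -1.37 to -0.84 in RFIneg, from -2.03 to -1.47 in RFIpl and, for RFIplR, from -1.45 to -0.98. RFIpl was lowest, with its highest array, at -1.47, next to the lowest RFIplR array at -1.45. On the dim arrays the values scattered from -3.24 to -0.82, and the probe was well above background on 4 of these 7. With the block HSPA1L was higher by 0.77 in RFIplR than in RFIpl (SE 0.22, limma adjusted p = 0.030), in 8 of 8 arrays. The bright arrays alone gave 0.49 (SE 0.13, limma adjusted p = 0.044), the single member call within that class for this comparison. The RFIneg difference of 0.51 (SE 0.22) missed the threshold (limma adjusted p = 0.17), while the bright arrays alone gave 0.54 (limma adjusted p = 0.048). The RFIplR call with the block was lost without RFIpl 5, RFIplR 6 or RFIplR 7 (limma adjusted p up to 0.076), and without RFIpl 7 and RFIpl 8 together.

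The other HSP70 members did not pass in any comparison. HSPA5, the ER chaperone BiP, was at 1.80 ± 0.27 (SD, n = 6) in RFIneg, 1.95 ± 0.37 (n = 6) in RFIpl and 1.77 ± 0.42 (n = 5) in RFIplR on the bright arrays, with a difference of -0.35 (SE 0.18, limma adjusted p = 0.23) between RFIplR and RFIpl. HSPA12A, a distant HSP70 relative, was 0.59 (SE 0.31) higher in RFIneg than in RFIpl and 0.50 (SE 0.31) higher than in RFIplR, with limma adjusted p of 0.26 and 0.63. HSPA6, a strictly stress-inducible HSP70 that the files name HSP70, was dim, at -3.22, -3.01 and -3.08 on the bright arrays of RFIneg, RFIpl and RFIplR. HSPA13, a microsomal HSP70, was -0.25 (SE 0.16) in RFIneg against RFIpl.

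Neither HSP90 gene passed in any comparison at its brightest probe. HSP90AA1, the inducible cytosolic form, had bright-array means of 5.69 ± 0.28 (SD, n = 6), 5.70 ± 0.22 (n = 6) and 5.48 ± 0.22 (n = 5) in RFIneg, RFIpl and RFIplR. HSP90B1, the ER form GRP94, had 5.05 ± 0.16, 5.10 ± 0.20 and 4.998 ± 0.08 and a residual SD of 0.14. At the brightest probe their differences with the block lay between -0.13 and 0.17 over the 3 comparisons. For HSP90AA1 that probe gave the smallest difference of its 6 probes in both comparisons with RFIplR. The 6 gave 0.17 to 0.50 in RFIneg against RFIplR and -0.35 to -0.13 in RFIplR against RFIpl, each with 1 sign. In RFIneg against RFIpl they gave 0.04 to 0.15. The 8 HSP90B1 probes stayed between -0.10 and 0.12 throughout.

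The mitochondrial chaperonin HSPD1 and its lid HSPE1, whose genes stand head to head and share a promoter region, varied together. On the 17 bright arrays Pearson's r was 0.79 (permutation p = 0.00013, adjusted over 5 pairs 0.00065) and Spearman's rho was 0.73 (permutation p = 0.0012, adjusted 0.0062). Pearson's r was 0.73 without RFIpl 2 and RFIplR 5, the arrays farthest from the HSPD1 median. The 11 arrays of the first scan day, all bright, gave r = 0.88 (permutation p = 0.00052) and rho = 0.84 (permutation p = 0.0023), and r = 0.70 without RFIplR 5 and RFIneg 8. On the 7 dim arrays r was 0.68 (exact permutation p = 0.097) and rho 0.75 (exact permutation p = 0.066), but r fell to 0.06 without RFIpl 6 and RFIneg 7, so there the relation rests on those arrays. Arrays of all groups enter these values. No other pair of the 5 passed on the bright arrays. Pearson's r was 0.46 for PSMC1 and PSMD1 and 0.45 for HSPA5 and HSP90B1 (adjusted permutation p = 0.12 for both). Without the 2 arrays farthest from the median of the first gene, r fell to 0.0030 and 0.14. PSMB8 and PSMB5 had r = 0.22 (adjusted permutation p = 0.42).

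HSPE1 was lowest in RFIplR, with bright-array means of 6.11 ± 0.50 (SD, n = 6) in RFIneg, 5.99 ± 0.29 (n = 6) in RFIpl and 5.69 ± 0.33 (n = 5) in RFIplR and overlapping ranges. The difference of 0.40 (SE 0.16) between RFIneg and RFIplR did not pass the limma adjustment (adjusted p = 0.45). All 4 HSPE1 probes gave 0.39 to 0.43 and all 20 HSPD1 probes gave 0.12 to 0.34 in that comparison, where the brightest HSPD1 probe gave 0.14 (SE 0.15).

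**Figure D4:**
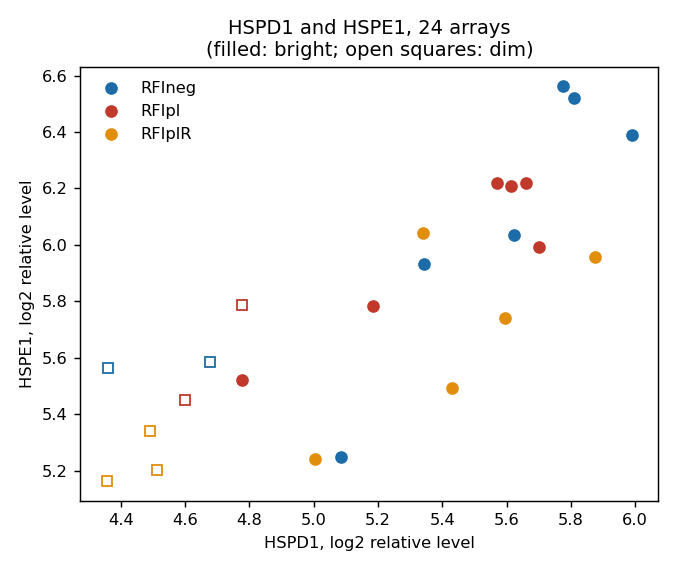
Relative level (log2) of HSPE1 against HSPD1, 1 point per array, coloured by group, filled for the 17 bright and open squares for the 7 dim arrays. Both genes are low together on the dim arrays, and among the bright arrays Pearson's r is 0.79.

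Of the 23 proteasome genes, none was called between RFIneg and RFIpl. With the block 2 rose in RFIplR against RFIpl and 1, PSMD10, was called lower with only 5 of its 8 RFIplR values measured above background. Between RFIneg and RFIpl 18 of 23 differences were positive, with a median of 0.12 beside -0.0071 for all probes, and 48.9% of all probes were positive there. Between RFIplR and RFIpl 16 of 23 were positive, beside 47.1% of all probes, with a median of 0.060 beside -0.019. In RFIneg against RFIplR the count was 15 of 23, beside 53.8% of all probes, and the median 0.047 beside 0.018.

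PSMD4, the ubiquitin receptor of the 19S cap, had relative levels of 1.79 to 3.36 in RFIneg (median 3.03), 1.66 to 3.07 in RFIpl (median 2.83) and 1.76 to 3.41 in RFIplR (median 3.07). On the bright arrays the means were 3.11 ± 0.14 (SD, n = 6), 2.88 ± 0.15 (n = 6) and 3.17 ± 0.15 (n = 5), and RFIpl and RFIplR met at 3.07 and 3.06. The RFIplR difference was 0.26 (SE 0.08, limma adjusted p = 0.045), in 8 of 8 arrays, and the RFIneg difference 0.21 (SE 0.08, limma adjusted p = 0.12). The RFIplR difference was 0.29 on the bright and 0.19 on the dim arrays. It was 0.22 within the first scan day and -0.065 within the second, when more of the RFIplR than of the RFIpl arrays were dim. Its spread within group and brightness class was among the smallest, with a residual SD of 0.13.

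PSMC1, an ATPase of the cap, was at 4.80 to 5.53 in RFIplR (median 5.37) and 4.71 to 5.34 in RFIpl (median 4.999), with RFIneg between at a median of 5.16. The bright-array means were 5.27 ± 0.18 (SD, n = 6), 5.06 ± 0.21 (n = 6) and 5.44 ± 0.08 (n = 5) in RFIneg, RFIpl and RFIplR, and the ranges of the last 2 overlapped at 1 array each. With the block PSMC1 was higher by 0.30 in RFIplR than in RFIpl (SE 0.09, limma adjusted p = 0.043), in 7 of 8 arrays. Its 2 probes gave 0.30 and 0.31.

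Both calls were lost in 14 of the 24 fits that left out 1 array, with limma adjusted p up to 0.077 for PSMC1 and 0.086 for PSMD4. For PSMC1 these were the fits without RFIneg 1, RFIpl 1, 2, 3, 4, 6 or 8, or RFIplR 1, 2, 3, 4, 5, 7 or 8. For PSMD4 they were those without RFIneg 1 or 2, RFIpl 1, 2, 4, 5, 6 or 8, or RFIplR 3 to 8. Neither was called without RFIpl 2, the array with muscle transcripts.

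PSMD10, or gankyrin, a chaperone that helps assemble the cap and also binds regulators of the cell cycle, was lowest in RFIplR. Its relative level was -1.96 to -0.63 in RFIneg (median -0.99), -1.58 to -0.45 in RFIpl (median -0.97) and -2.69 to -1.02 in RFIplR (median -1.27). The bright arrays overlapped, at -0.86 ± 0.28 (SD, n = 6) in RFIpl and -1.18 ± 0.11 (n = 5) in RFIplR. On the dim arrays all 3 RFIplR values, -2.69 to -2.22, lay below the 2 RFIpl values of -1.58 and -1.38. Of all kept probes 40.2% did not overlap between these dim arrays. On the 3 dim RFIplR arrays the probe was not well above background, so they give only a bound and PSMD10 was measured on 5 of 8 RFIplR arrays.

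Where the probe was measured in every pig, on the bright arrays, PSMD10 differed by -0.31 (SE 0.14) between RFIplR and RFIpl and did not pass (limma adjusted p = 0.22). The call with the block (-0.53, SE 0.13, limma adjusted p = 0.013) takes in the 3 values below background. RFIneg was 0.23 (SE 0.14) above RFIplR on the bright arrays, with a limma adjusted p of 0.83. The gene had 1 probe.

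The 20S core showed little between the groups. The alpha subunits PSMA3, PSMA4, PSMA5 and PSMA6 had differences of -0.05 to 0.21 in RFIneg against RFIpl and -0.12 to 0.17 in RFIplR against RFIpl. PSMA3 was the farthest, at 2.88 ± 0.18 (SD, n = 6), 2.57 ± 0.26 (n = 6) and 2.81 ± 0.14 (n = 5) on the bright arrays of RFIneg, RFIpl and RFIplR. The constitutive beta subunits PSMB3, PSMB4, PSMB6 and PSMB7 were 0.08 to 0.23 above RFIpl in RFIneg, and none passed. PSMB4 had 10 probes, which gave 0.06 to 0.16. The catalytic subunit PSMB5 was named only through a gene identifier and is not counted; its RFIneg difference from RFIpl was 0.35 (SE 0.15, limma adjusted p = 0.15).

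The interferon-inducible subunits did not pass either. PSMB8 varied most of all proteasome genes between arrays, with a residual SD of 0.63. Its bright arrays ran from 0.11 to 1.67 in RFIneg, -0.29 to 1.66 in RFIpl and -0.22 to 1.56 in RFIplR. The ranges were nearly the same, and the difference of 0.36 between RFIneg and RFIpl (SE 0.30) had a limma adjusted p of 0.50. PSMB9 differed by 0.11 (SE 0.13) and PSMB10 by 0.17 (SE 0.10) in that comparison. PSMB8 and PSMB9, which sit beside each other in the MHC region, had r = 0.30 on the bright arrays (permutation p = 0.23, adjusted over 5 pairs 0.29; rho 0.30, permutation p = 0.24) and r = 0.11 without RFIpl 7 and RFIplR 5. The probe of PSMB11, a gene known from the thymus, was well above background on all arrays. Its means were -2.25, -2.03 and -2.23 on the bright arrays of RFIneg, RFIpl and RFIplR. This rests on 1 probe, which was 1.98 higher on the dim arrays, whereas 21 of 23 proteasome genes were lower there. Whether the probe reads PSMB11 alone was not tested.

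The remaining cap subunits and activators changed less than their error allowed to call. PSMD14, which removes ubiquitin from clients at the cap, was 0.30 (SE 0.18) higher in RFIneg than in RFIpl, and PSMC5, another ATPase, 0.23 (SE 0.09, limma adjusted p = 0.13). PSMD1, a scaffold of the cap, and PSMD3 were at 0.17 each, and PSMC6 was at 0.12. PSME1 and PSME2, which form the interferon-inducible activator, were at -0.16 (SE 0.11) and 0.05 (SE 0.11), and PSME3, the nuclear activator, at 0.06 (SE 0.15). PSME3 in RFIplR was -0.29 (SE 0.15) against RFIpl and RFIneg was 0.36 (SE 0.15) above RFIplR, with limma adjusted p of 0.22 and 0.46.

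The distance between the proteasome and the chaperones was about the same in each group. The difference between the median relative level of 23 proteasome genes and that of 24 chaperone genes was taken on each array, since probe levels can be compared only across arrays. This gap was 1.53 ± 0.08 (SD, n = 8) in RFIneg, 1.54 ± 0.17 in RFIpl and 1.54 ± 0.14 in RFIplR. The ranges overlapped almost fully, 1.42 to 1.64, 1.34 to 1.78 and 1.28 to 1.70, and group differences in the gap were within 0.02. Between RFIneg and RFIpl 14 of 24 chaperones were positive with a median of 0.064, against 18 of 23 and 0.12 for the proteasome.

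**Figure D5:**
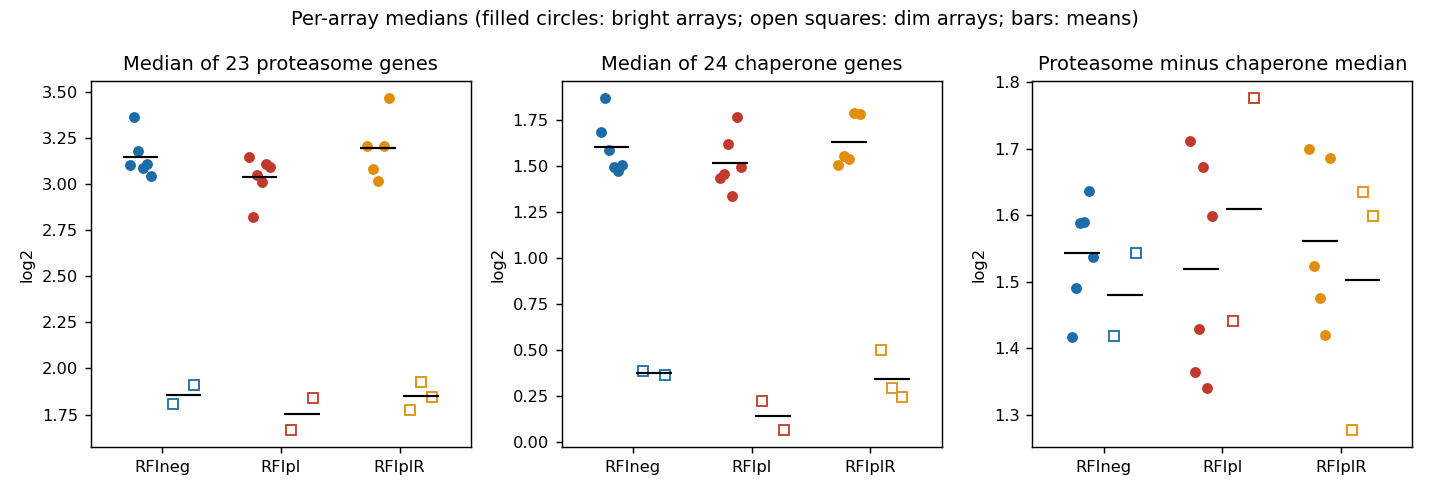
Median relative level (log2) of 23 proteasome genes, of 24 chaperone genes and the difference between them on each array, by group; filled circles are bright arrays, open squares dim arrays, bars class means. Both medians are lower by more than 1 log2 unit on the 7 dim arrays in each group, whereas the gap lies between 1.28 and 1.78 on all 24 arrays.

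The 2 machineries differed more in their spread between arrays. The residual SD within group and brightness class had a median of 0.20 over the proteasome genes and 0.29 over the chaperones, against 0.32 over all 28611 kept probes. Of the proteasome genes 21 of 23 lay below the array's median, PSMB8 and PSMD14 being the exceptions, and of the chaperones 14 of 24. The widest chaperones were HSPB8 (1.14), DNAJC12 (0.72), HSPA6 (0.66), HSPA12A (0.66), HSPB1 (0.47) and HSPA1L (0.46). With 1 array for each pig this SD also holds the noise of the array. Members were taken at their brightest probe, whereas all kept probes include dimmer ones, so the medians are not matched for signal. HSPB8 was not well above background on any dim array, nor HSPA6 on those of RFIneg. Whether the machineries vary differently between pigs was not tested.

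At the median the members fell further on the dim arrays than all kept probes did, and 37 of 47 were lower there. Members were taken at their brightest probe, so this comparison is not matched for signal. The mean of the dim minus that of the bright arrays had a median of -1.01 log2 for the proteasome genes, -0.62 for the chaperones and -0.045 for all kept probes. It was -2.43 for PSMB7, -2.21 for PSME2 and -2.12 for PSMA3, while HSPA12A was 2.05 and PSMB11 1.98 higher on the dim arrays. The shift correlated with the GC content of the probe at r = 0.27 over the 47 members and 0.28 over all kept probes, genes that are not independent replicates. RFIplR had 3 dim arrays and the other groups 2 each. The proteasome median in RFIneg against RFIplR was 0.21 without block and 0.047 with it.

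Of 39 measured symbols of genes that supply or steer these machineries, 5 were called in RFIplR against RFIpl with the block (12.8%, beside 10.3% of all probes), 1 in RFIneg against RFIpl (2.56%, beside 6.6%) and 0 in RFIneg against RFIplR. Without the block none was called, with limma adjusted p of 0.055 for FBXO32 and 0.42 or more for the others named here as called. The values that follow are from the fit with the block. Of 15 measured co-chaperone and heat shock control genes, UNC45A, a myosin co-chaperone that binds HSP90, was higher in RFIneg (0.42, SE 0.11, limma adjusted p = 0.023) and RFIplR (0.46, SE 0.11, limma adjusted p = 0.0096) than in RFIpl. FKBP4, which carries steroid receptors on HSP90, was lower in RFIplR than in RFIpl (-0.79, SE 0.18, limma adjusted p = 0.0071). Of the uncalled genes of this list PFDN6 was nearest the threshold in that comparison (-0.43, limma adjusted p = 0.086). HSPH1, the exchange factor of HSP70, was -0.71 there and FKBP5 -0.62, neither past the threshold, with limma adjusted p of 0.11 for both. Of these 15 genes 11 were lower in RFIplR than in RFIpl, with a median of -0.11 beside -0.019 for all probes.

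Among 8 measured symbols of ubiquitin supply and delivery, with UFD1 present under its older name as well, FBXO32 passed. This muscle-atrophy ubiquitin ligase, also called atrogin-1, was higher by 1.67 in RFIplR than in RFIpl (SE 0.35, limma adjusted p = 0.0054) and did not pass between RFIneg and RFIpl (0.92, limma adjusted p = 0.12). Of 3 measured assembly genes PSMG4, a chaperone of the alpha ring, was 0.31 higher in RFIplR than in RFIpl (SE 0.09, limma adjusted p = 0.028). Of 5 genes of class I peptide loading, B2M, the light chain of class I molecules, was 0.34 higher there (SE 0.08, limma adjusted p = 0.012), and TAP1 was at -0.35 (limma adjusted p = 0.34). None of 8 ER folding genes passed in any comparison; CALR was nearest, at -0.36 in RFIplR against RFIpl (limma adjusted p = 0.068). The list of mitochondrial folding and proteolysis had 1 gene on the array and none measured.

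Probes of the same gene mostly pointed the same way. Of 28 members with more than 1 kept probe, all probes shared a sign in 20 for RFIneg against RFIpl, 17 for RFIneg against RFIplR and 18 for RFIplR against RFIpl. The median range between probes of a gene was 0.10, 0.13 and 0.13 log2. HSPB2, HSPA1L and PSMD10 had 1 probe each, so their differences have no such check.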

How the data were processed

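RNA of 24 pig adipose samples was hybridised to Agilent 1-colour arrays (Cy3). Per the file headers, the deposited scanner files hold background-subtracted spot intensity from Feature Extraction 10.7.3.1, with no scaling across arrays. The authors' deposited table holds log2 values that equal the same intensity after centring each array on its median, and the submitters' processing notes list R 2.10.0.

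Each value was log2 of processed intensity (floor 1) minus each array's 75th percentile. A probe was kept if well above background on at least 6 of 8 arrays of a group and missing on at most 6: 28611 of 43603. Literal matching would drop DNAJ and HSP90 names, so a letter before the number was allowed. Symbols came from RefSeq accessions (7371 probes), gene identifiers (1501, not used for membership) or the files (3560), through an Sscrofa11.1 gene list used for names only; 38 had several and 31133 none. No spot was saturated, and the number of arrays limits precision.

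One limma 3.58.1 fit in R 4.3.3 (files read with version 1.17.8 of data.table) over 24 arrays gave all comparisons, adjusted over all kept probes at 0.05, and was tested on simulated data; a second fit added brightness class, defined from the largest gap in the arrays' 75th percentiles, as a block. The arrays came from 7 slides and 3 scan days. Genes named are, per comparison and direction, the 6 members with the smallest p with the block, every called member, a panel by role, and called genes of 6 pathway lists. Some further members and the uncalled list genes PFDN6, HSPH1, FKBP5, TAP1 and CALR were named outside this rule. Permutation tests were two-sided with 100000 draws. Members and lists were chosen with earlier results of these data known. Each pig is 1 array, so p-values rest on spread between pigs and between arrays together, which cannot be told apart. Python 3.11.15, pandas 2.3.3, numpy 2.4.6, scipy 1.17.1 and matplotlib 3.10.9 were used. Alternatives are given in the closing section.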

Additional observations from a re-analysis of the deposited data

Results flagged for a closer look

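In 3 member and group combinations 1 array stood far from the other 7 of its group by Dixon's test at the 95% level, which chance alone flags in about 1 in 20 groups. The groups mix bright and dim arrays. HSPA6 was -5.03 on RFIpl 5, a dim array, with the next lowest RFIpl array at -3.40. Its probe was well above background on 1 of the 2 dim RFIpl arrays. HSPA1L was -2.62 on RFIplR 2, a dim array, with the next lowest at -1.45. Its probe was well above background on 2 of the 3 dim RFIplR arrays. DNAJC3, an ER-stress J protein, was -0.021 on RFIplR 2, with the other 7 between 0.52 and 0.78.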

How the results depend on the processing

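Without block, 0 members were called in each comparison under 16 of 19 other settings of scaling, background, filter, blocks and arrays. The exceptions were, for RFIneg against RFIpl, RFIplR against RFIpl and any group difference, the brightness block (3, 5 and 3), the bright arrays alone (1, 1 and 1, beside 1.03%, 3.26% and 1.67% of all probes) and array weights (6, 2 and 5, beside 10.3%, 9.63% and 12.4%). Leaving out 1 array gave 0 to 1 for RFIneg against RFIpl, the 1 being without RFIpl 3. With the block the counts of 3, 5 and 3 became 0, 0 and 0 with slide added. They became 1 and 3 for the first pair of comparisons without RFIpl 2, 0 and 3 without RFIpl 1 and RFIpl 2, and 0, 2 and 0 without RFIpl 7 and RFIpl 8. RFIplR against RFIpl had 3 calls with normexp and quantile, with quantile scaling and with all probes of a gene averaged. The share of all probes called there is not given, so these counts are not read as a trait of the members. Leaving out 1 array with the block gave 0 to 4 (6 fits at 1 or fewer), 2 to 6 (12 fits at 3 or fewer) and 0 to 5 calls. The calls over all probes moved too. In RFIneg against RFIpl they were 1008 without RFIpl 4, where 0 members were called, and 3400 without RFIpl 3, where 4 were. RFIneg against RFIplR had 0 throughout.

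The proteasome median in RFIneg against RFIplR, 0.21 without block, was 0.047 with brightness, 0.072 and 0.057 on bright and dim arrays, 0.0013 with slide and 0.0023 with scan day as the block. It was 0.068 within day 1, -0.31 within day 2 and 0.059 to 0.29 with 1 array left out. In RFIneg against RFIpl, 0.12 became -0.022 with slide, -0.0028 with scan day, and -0.054 and -0.38 within days 1 and 2. In RFIplR against RFIpl, -0.018 became -0.17 to 0.037 with 1 array left out. Within day 2, which mixes bright and dim arrays, the chaperone median was -0.23 in RFIneg against RFIpl and -0.14 in RFIneg against RFIplR. Averaging all probes of a gene moved the gap in RFIneg against RFIplR to 0.13. With the block the proteasome medians of 0.12, 0.047 and 0.060 in RFIneg against RFIpl, RFIneg against RFIplR and RFIplR against RFIpl ranged over the alternatives from 0.020 to 0.18, 0.0047 to 0.074 and 0.0011 to 0.12. These shifts were within the SD between arrays of 0.126, which is as large as the medians, so it does not show them stable. Within day 2, without block, DNAJB12 was -0.12 and HSPB2 -0.52 in RFIneg against RFIpl and PSMD4 -0.065 in RFIplR against RFIpl. These are opposite to their signs with the block. On day 2 every RFIneg array was dim, and more of the RFIplR than of the RFIpl arrays were dim. The day 2 values in this paragraph thus also hold the shift between the brightness classes, which cannot be told apart from the group there.

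No pairing of the pigs by replicate number was seen, in a check over all probes that could miss a weak one. Deviations of same-numbered arrays from their group means correlated between -0.82 and 0.88. After also removing the brightness class means they correlated between -0.27 and 0.33. Then 2 of 24 arrays correlated best with their own number (0 before). The replicate block called 0 members in each comparison, and with brightness as a block as well 2, 0, 3 and 2 for the 3 comparisons and any difference. The within-day fits, the settings that combine scaling, filter or probe choices with the block, and those without pairs of RFIpl arrays were chosen after seeing the data. Signal over background limits the dim arrays: HSPB8 and DNAJC17 were not well above background on any of them, nor PSMD10 on the 3 of RFIplR. HSPA6, HSPA1L and PSMB3 were so on only some of the dim arrays.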
